A study of Mus musculus with 6 samples.

Results

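The genes described here are 47 mouse interferon-stimulated genes, listed by symbol and looked up by Ensembl identifier among the 55487 gene rows of the count tables. They comprise 12 nucleic acid sensors, 4 transcription factors and 31 effectors. All 47 symbols were found. RNA was sequenced from hepatocytes, which carry out most of the liver's metabolism and protein secretion, from mice aged 6 to 8 weeks, 48 h after the cells were isolated. The 2 groups were wild-type mice (WT, 3 libraries) and mice homozygous for AEG-1-C75S (C75S, 3 libraries), both bred from heterozygous parents and with the treatment given as control in all 6 libraries. AEG-1, encoded by *Mtdh*, is a membrane protein of the endoplasmic reticulum, and C75S puts a serine in the place of the cysteine that is palmitoylated. Counts per gene cannot show the substitution itself. The labels name neither the strain nor any pooling, and whether each library is a mouse of its own is not stated. Without that, p-values measure only the spread between these libraries, which may be technical.

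Interferons are secreted proteins that warn cells of infection. Their receptors activate JAK kinases and STAT factors, and a complex that contains STAT2 and IRF9 binds the interferon-stimulated response element (ISRE) in front of many target genes, while other STAT dimers bind the gamma-activated sequence (GAS). The targets include sensors that detect foreign nucleic acid, the transcription factors of the pathway itself and effectors that block viral entry, translation, replication or release, and many are transcribed at a low level in resting hepatocytes.

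The bases in front of the transcript start are shown first, because response elements in that place connect interferon signalling to these genes. Sequences are from the RefSeq promoter table for GRCm38.p6, which held 39 windows for 35 of the 47 members. The 250 bases before each start were searched on both strands for the 9 letters GAAANNGAA of the ISRE core, and for the GAS letters TTCNNNGAA, which read the same on both strands. Below are *Ifi44* and *Bst2*, 2 of the members called lower in C75S, then *Trim25*, *Stat2* and *Gbp7*, each the member with the highest level per kilobase of its family and holding an ISRE core, and *Isg15* and *Ifit1*, 2 classical interferon targets chosen after their values were seen. Each is read 5′ to 3′ on the gene's strand and ends at the base before the RefSeq start, and capitals mark ISRE core and GAS matches. *Eif2ak2*, *Ddx58*, *Oasl1* and *Ifit2*, also the highest of their families, held no ISRE core and are not shown. The sequences printed therefore hold the core more often than the list does.
Ifi44, chr3:151749911-151750060, minus strand: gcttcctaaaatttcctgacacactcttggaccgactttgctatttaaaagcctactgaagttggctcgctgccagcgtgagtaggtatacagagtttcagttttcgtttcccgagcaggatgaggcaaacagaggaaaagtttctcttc
Bst2, chr8:71537473-71537622, minus strand: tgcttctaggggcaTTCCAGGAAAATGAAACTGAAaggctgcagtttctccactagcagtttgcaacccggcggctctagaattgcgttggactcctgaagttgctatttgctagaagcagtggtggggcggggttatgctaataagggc
Trim25, chr11:88999253-88999402, plus strand: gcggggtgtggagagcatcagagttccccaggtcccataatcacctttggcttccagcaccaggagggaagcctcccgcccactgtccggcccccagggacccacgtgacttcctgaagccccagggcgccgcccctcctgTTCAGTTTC
Stat2, chr10:128270267-128270497, plus strand: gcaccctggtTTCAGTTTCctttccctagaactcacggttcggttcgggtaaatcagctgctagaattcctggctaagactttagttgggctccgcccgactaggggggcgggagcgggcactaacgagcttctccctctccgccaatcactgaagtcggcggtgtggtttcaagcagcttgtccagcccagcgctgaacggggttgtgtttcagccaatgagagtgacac
Gbp7, chr3:142530186-142530335, plus strand: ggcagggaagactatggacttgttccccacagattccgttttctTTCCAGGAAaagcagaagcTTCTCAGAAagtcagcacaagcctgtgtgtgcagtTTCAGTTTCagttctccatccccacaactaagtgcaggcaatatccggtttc
Isg15, chr4:156200819-156200968, minus strand: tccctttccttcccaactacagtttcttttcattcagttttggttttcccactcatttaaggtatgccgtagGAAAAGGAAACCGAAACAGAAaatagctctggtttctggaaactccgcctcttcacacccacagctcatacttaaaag
Ifit1, chr19:34640739-34640888, plus strand: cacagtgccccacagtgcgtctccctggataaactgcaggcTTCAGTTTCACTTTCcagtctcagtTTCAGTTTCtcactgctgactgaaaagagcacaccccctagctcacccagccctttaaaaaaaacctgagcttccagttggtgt

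The ISRE core was present before at least 1 start of 18 of the 35 members (51.4%), against 8.18% of the 27025 genes in the table. By window, 18 of 39 (46.2%) held it, against 7.13% of 32851 windows. GAS letters were present for 8 of 35 members (22.9%), against 8.13% of all genes. In *Isg15* 3 ISRE cores overlapped, beginning 78, 72 and 66 bases before the start, and in *Ifit1* 3 began 109, 103 and 84 bases before it. In *Bst2* the GAS match beginning 136 bases before the start ran into the first of 2 overlapping ISRE cores. *Gbp7* had GAS matches at 106 and 87 bases and an ISRE core at 52 bases before the start. The window of *Ifi44* held neither set of letters, which says nothing about other spellings or other places. The 16 tested members with an ISRE core had a median log2 fold change of -0.14 and the 17 without one -0.18. With the core 1 member was called, and without it 1. The 12 members with no window in the table (10 tested) had a median of -0.30 and 3 calls. All these calls were lower in C75S, as were 1.37% of all 12741 tested genes. The differences between these groups of genes were not tested.

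**Figure D1:**
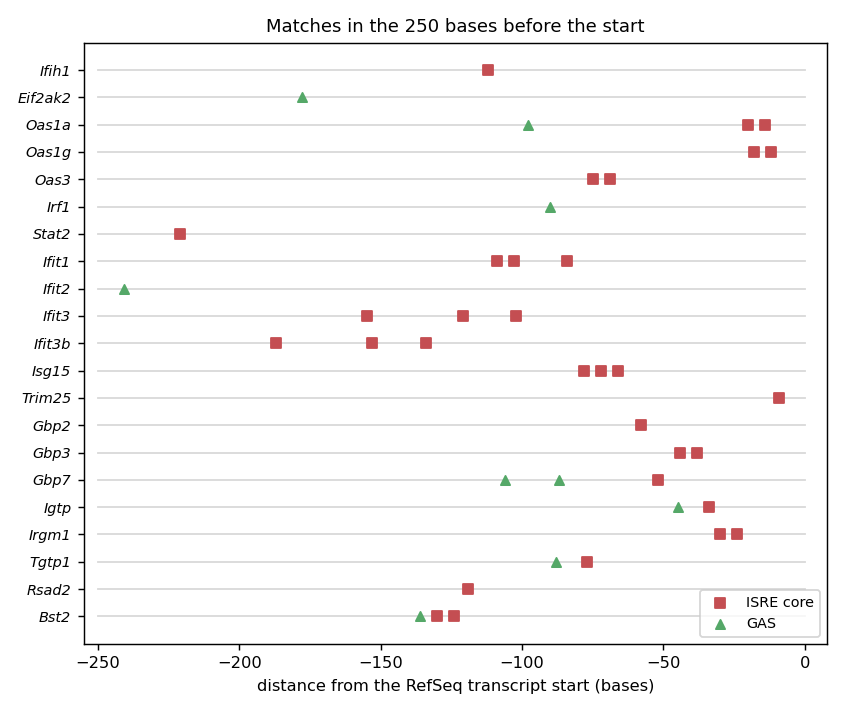
Matches to the ISRE core (squares) and GAS letters (triangles) in the 250 bases before the RefSeq start, for the 21 members with a match in the window holding most of them. The x axis is the distance of the first base of the match from the start. *Isg15*, *Ifit1*, *Ifit3* and *Ifit3b* each hold 3 ISRE cores.

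The libraries held between 16944723 and 21044292 gene counts, C75S replicate 1 being the shallowest. A count of 3 corresponds to 0.142 to 0.172 CPM, where CPM is counts per 1000000 counts after TMM scaling of the library sizes. The 8 hepatocyte markers ranged from *Serpina1a*, at 66.4 to 76.6 CPM, to albumin (*Alb*), at 55643 to 70067 CPM. All 8 overlapped between genotypes, and 0 were called, against 3.11% of all tested genes. All 7 T and NK cell markers were at 0 in every library, and the 4 B cell markers summed to at most 0.0949, the 5 neutrophil markers to at most 0.142 and the 5 plasmacytoid dendritic cell markers to at most 0.332 CPM in any library. Of 9 Kupffer cell and macrophage markers, *Cd68* was at 94.9 to 138 CPM, while the defining markers *Adgre1* and *Clec4f* did not exceed 0.0485 and 0.190 CPM. The 9 summed to 96.2 to 140.1 CPM in C75S and 103 to 134 in WT, overlapping ranges, but nearly all of the sum was *Cd68*. *Marco* was higher in every C75S library, at no more than 0.345 CPM in any, and was too low to be tested. The other macrophage markers overlapped between genotypes. Summed levels of the 8 endothelial and the 7 stellate cell markers overlapped too, but *Stab2* and *Reln* made up most of these sums. Of 5 tested endothelial markers, 3 (*Pecam1*, *Kdr* and *Lyve1*) were higher in every C75S library, against 9.02% of all tested genes. Of the 5, 0 were called, against 1.74% of all tested genes called higher, and *Stab2* and *Cdh5* overlapped. The stellate markers *Des* and *Hgf* were higher in every C75S library, at no more than 0.160 and 0.287 CPM, and were not tested. The other stellate markers overlapped. The 6 cholangiocyte markers summed to 144 to 197 CPM in C75S and 122 to 133 in WT, but did not move as a set. Most of the sum was *Spp1*, at 157, 133 and 105 CPM in C75S and 83.9, 96.5 and 92.5 in WT, which was not called (edgeR adjusted p = 0.235). Of the 4 tested only *Krt19* was called, higher in C75S, while *Sox9* and *Krt7* overlapped between genotypes, *Epcam* was lower in every C75S library at no more than 0.570 CPM in any, and *Cftr* was at 0. Unmapped reads moved with genotype, at 4.75% to 5.81% of reads in C75S and 4.37% to 4.59% in WT. The part of *Krt19*, *Spp1* and the unmapped share in the results was not tested.

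Most of the list was read at a low to moderate level. In WT, 6 members averaged 100 CPM or more, 24 between 10 and 100, 13 between 1 and 10, and 4 under 1 CPM. Levels per kilobase were divided by all bases that lie in any annotated exon of the gene. For *Irf7* these 3776 bases are its whole span, introns included, so comparisons between genes are rough. On that scale *Bst2* stood first at 213 CPM per kb in WT, followed by *Ifi27* at 44.2 and the GTPase gene *Iigp1* at 36.8. Of 5 classical interferon targets, chosen after their values were seen, *Isg15* was at 10.8, *Ifit1* at 4.51, *Rsad2* at 2.66, *Oas1a* at 0.734 and *Mx1* at 0.119 CPM per kb in WT. Replicates were close, with a median coefficient of variation of 6.95% among WT libraries over the 43 members that passed the filter on low counts and were tested.

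**Figure D2:**
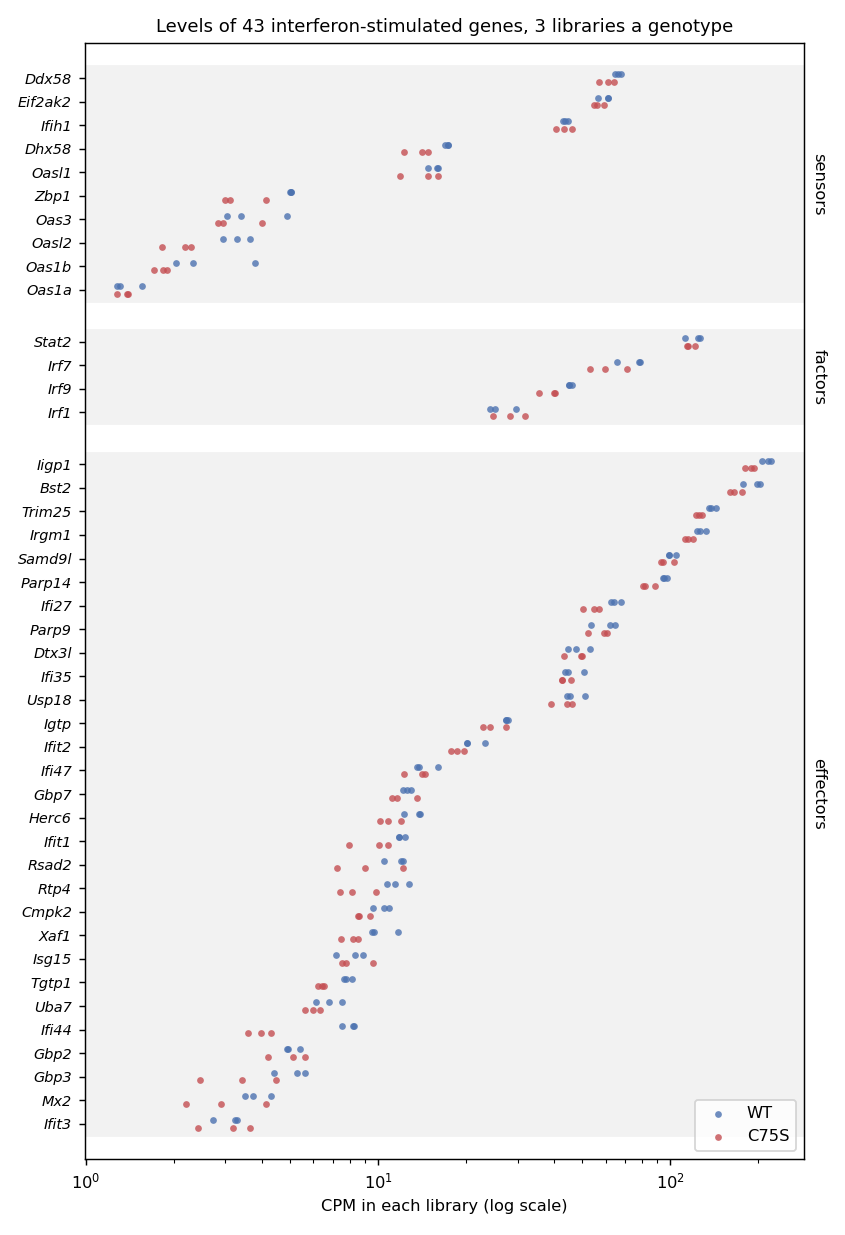
CPM in each of 6 libraries (x axis, log scale; blue WT, red C75S) for the 43 tested members, grouped as sensors, factors and effectors and ordered by mean level. The range runs from about 1 CPM (*Oas1a*) to about 200 CPM (*Iigp1*, *Bst2*), and red points tend to lie left of blue ones.

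Most of the interferon-stimulated genes had slightly lower levels in C75S than in WT hepatocytes, and 5 of them fell beyond the replicate error. Of the 43 tested members, 41 had a negative log2 fold change (C75S against WT) in the fit over all genes, where 50.9% of the 12741 tested genes did, and the median was -0.19 against 0.00 for all genes (-0.0030). The count was also 41 with RLE and upper-quartile scaling, and 39 with library-size scaling, where *Ifih1* and *Ifit3* turned positive. At a Benjamini-Hochberg adjusted p under 0.05 in edgeR's quasi-likelihood test, 5 members fell in C75S (background 1.37% of tested genes called lower) and 0 rose (background 1.74% called higher, and 3.11% in either direction). The members that fell were *Ifi44*, *Ifi27*, *Iigp1*, *Bst2* and *Rtp4*, all effectors, a class that held 29 of the 43 tested members. At an unadjusted p under 0.05 there were 20 lower members (background 6.51%) and 0 higher (background 6.91%). In DESeq2 and limma-voom, 0 members rose at an adjusted p under 0.05. In 20 tested members every C75S library lay below every WT library (background 8.96%), and in 0 above (background 9.02%). All 43 exceeded the filter's cutoff in each of the 6 libraries, so none entered through 1 genotype alone. In bulk RNA, fewer cells of a type and less RNA per cell cannot be told apart. The number called depended on the libraries: it was 6 when C75S replicate 1 was left out, and 2 when C75S replicate 2 or 3 or WT replicate 1, 2 or 3 was left out. With all libraries thinned to the smallest total it was 3, with 38 of 43 members negative.

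**Figure D3:**
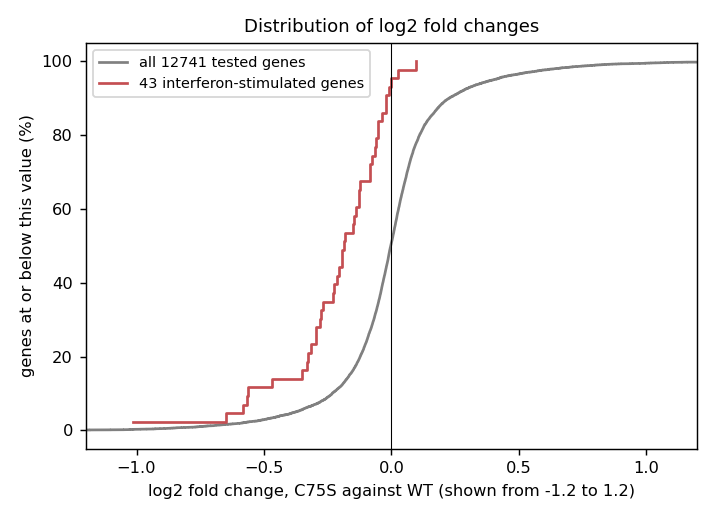
Cumulative share of genes (y axis, %) at or below each log2 fold change of C75S against WT (x axis), for the 43 tested interferon-stimulated genes (red) and all 12741 tested genes (grey). The red curve crosses 0 with 41 of 43 genes already counted (39 with library-size scaling), the grey one near 50.9%.

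The spread over libraries was uneven. Set against the WT mean of each gene, the median over the 43 members was -0.11 in C75S replicate 1, -0.19 in replicate 2 and -0.22 in replicate 3 on the log2 scale. The WT libraries were at -0.030, 0.038 and -0.0056. C75S replicates 2 and 3 each held the lowest value of 18 members, WT replicate 2 the highest of 18, and C75S replicate 1 was nearest to WT. Summed over the 47 members, the level was 1589 to 1709 CPM in C75S and 1779 to 1852 CPM in WT, with no overlap. Most of the sum came from the effectors, at 1163.5 to 1231.1 CPM in C75S and 1300.7 to 1357.7 in WT. The other classes overlapped. Sensors summed to 190.76 to 213.89 CPM in C75S and 213.17 to 222.91 in WT. Factors summed to 234.95 to 264.07 CPM in C75S and 261.41 to 274.02 in WT.

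*Ifi44*, an interferon-induced cytoplasmic protein, changed most. It lies on chromosome 3 from 151730922 to 151749960 on the minus strand (GRCm38). It was at 7.50, 8.28 and 8.20 CPM in the WT libraries and 4.31, 3.98 and 3.58 CPM in C75S. The groups did not overlap, the highest C75S library lying well under the lowest WT library. The log2 fold change was -1.01 (SE 0.156, edgeR adjusted p = 0.000228), and it was between -1.08 and -0.92 in 16 alternative fits, all called. The next in size among the tested members was *Oasl2*, at -0.65.

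*Ifi27*, a small membrane protein of mitochondria and the nuclear envelope, lies on chromosome 12 from 103434211 to 103440239 on the plus strand. It was at 67.8, 62.7 and 64.2 CPM in WT and 57.2, 50.2 and 54.6 CPM in C75S, again with no overlap. The log2 fold change was -0.27 (SE 0.062, edgeR adjusted p = 0.0152). The adjusted p rose to 0.12 when C75S replicate 2 was left out and to 0.0627 when WT replicate 1 was.

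*Bst2*, or tetherin, holds budding virus particles at the cell surface. It lies on chromosome 8 from 71534255 to 71537456 on the minus strand, and its promoter letters are shown above. The WT libraries were at 177, 198 and 203 CPM and the C75S libraries at 176, 160.4 and 166 CPM. The groups only just separated, since C75S replicate 1 lay immediately under WT replicate 1. The log2 fold change was -0.20 (SE 0.055, edgeR adjusted p = 0.0372), a call lost in 7 of 16 alternative fits with adjusted p up to 0.192. Of these, leaving out C75S replicate 2 or 3 gave 0.176 and 0.117, and WT replicate 2 or 3 gave 0.192 and 0.189.

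*Rtp4*, a chaperone-like protein that binds G protein-coupled receptors, lies on chromosome 16 from 23520291 to 23614222 on the plus strand. It was at 11.4, 12.8 and 10.7 CPM in WT and 9.82, 7.40 and 8.13 CPM in C75S, without overlap. The log2 fold change was -0.47 (SE 0.130), and its edgeR adjusted p of 0.0477 was close to the threshold. It was not called in 9 of 16 alternative fits. Leaving out C75S replicate 2 or 3 gave an adjusted p of 0.239 or 0.141, and leaving out WT replicate 1, 2 or 3 gave 0.0819, 0.233 or 0.0646. *Gm45338* shares 13.9% of its exon bases on the same strand, where STAR's counting assigns reads to neither gene.

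**Figure D4:**
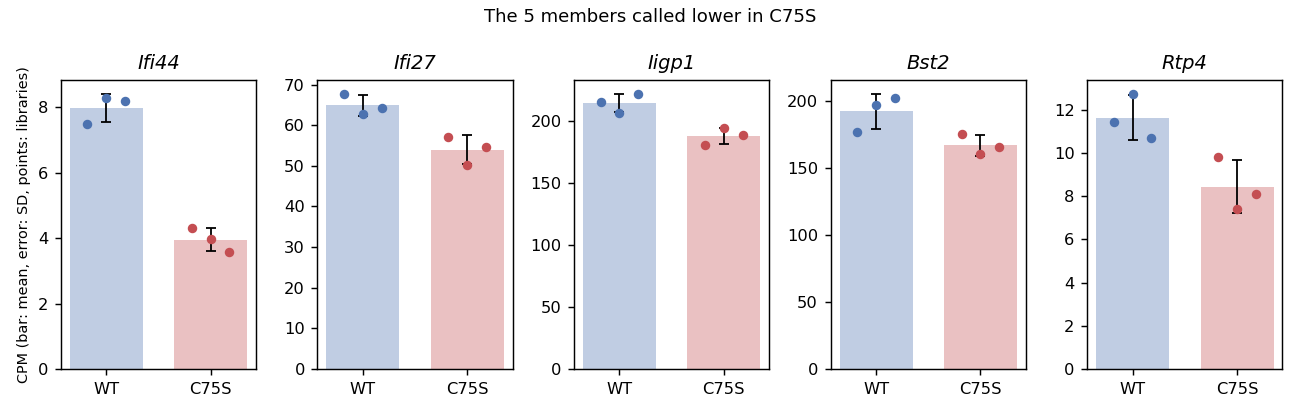
CPM by genotype for the 5 members called lower in C75S (one panel each, y axes from 0). Bars are means, error bars SD and points the 3 libraries of each group. In each panel all C75S points lie below all WT points, and *Ifi44* shows the largest fall.

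The immunity-related GTPases are effectors that act on the membranes of vacuoles holding pathogens. All 5 tested members had negative values (background 50.9%), 1 of them called (background 1.37% called lower). Summed, the family was at 346 to 350.0 CPM in C75S and 387 to 399 CPM in WT. *Iigp1* (chromosome 18, 60376027 to 60392634, plus strand) contributed most, at 215, 206 and 221 CPM in WT and 181, 194 and 188 CPM in C75S. Its groups did not overlap, and its log2 fold change was -0.19 (SE 0.050, edgeR adjusted p = 0.0292). With all 6 libraries it was called under each of 10 other settings. The adjusted p rose to 0.139 or 0.0814 when C75S replicate 1 or 3 was left out, and to 0.0611, 0.059 or 0.134 when WT replicate 1, 2 or 3 was. The transcripts of *Gm5970* and *Gm4951* are 88.1% and 86.25% identical to that of *Iigp1* over part of its length. *Irgm1*, a regulator of the other GTPases of this family, was at 123, 132 and 127 CPM in WT and 119, 113 and 115 in C75S. Those groups did not overlap either, but the adjusted p was 0.172. *Tgtp1* was at 7.79, 8.14 and 7.62 CPM in WT and 6.55, 6.40 and 6.21 in C75S (edgeR adjusted p = 0.341), with no overlap. *Tgtp2* is a near copy, the 2 longest transcripts being 99.8% identical, so the count holds only reads that could be placed in 1 of them. *Igtp* and *Ifi47* had log2 fold changes of -0.15 and -0.084, with overlapping groups. The genes *Igtp*, *Irgm1*, *Tgtp1* and *Ifi47* all lie on chromosome 11, while *Iigp1* lies apart.

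The guanylate-binding proteins, GTPases that attack the same vacuoles, lie on chromosome 3 between 142530342 and 142638008. None was called. *Gbp3* was at 4.42, 5.26 and 5.63 CPM in WT and 4.48, 3.42 and 2.46 in C75S, so that 1 C75S library reached the WT range (log2 fold change -0.57, edgeR adjusted p = 0.166). *Gbp7*, the highest of the 3 per kilobase, was at 12.2, 12.9 and 12.6 CPM in WT and 13.6, 11.2 and 11.6 in C75S, overlapping groups. *Gbp2* gave a log2 fold change of -0.021 (SE 0.170).

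The IFIT genes, whose proteins bind viral RNA and hinder its translation, form a cluster on chromosome 19 from 34550694 (*Ifit2*) to 34650009 (*Ifit1*). None of the 3 tested was called (background 3.11% in either direction). *Ifit1* was at 12.3, 11.8 and 11.8 CPM in WT and 10.8, 10.1 and 7.97 in C75S, all C75S libraries being lower (log2 fold change -0.32, edgeR adjusted p = 0.219). *Ifit2* was at 23.2, 20.1 and 20.2 CPM in WT and 19.6, 18.5 and 17.8 in C75S, where the groups again separated (adjusted p = 0.402). *Ifit3* had a log2 fold change of 0.00 (SE 0.222). Its transcript is 97.8% identical to that of *Ifit3b*, which the filter on low counts left out at 0.194 to 0.807 CPM, so the split of reads between the pair is uncertain.

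The ISG15 system attaches the ubiquitin-like protein ISG15 to other proteins. None of its 4 members was called (background 3.11% in either direction). *Isg15* itself, with 3 ISRE cores in the window shown above, was at 7.17, 8.87 and 8.34 CPM in WT and 9.59, 7.54 and 7.76 in C75S, which overlap. Its log2 fold change was 0.026 (SE 0.142), and it was 1 of the 2 members with a positive value. The transcript of *AC151275.1* is 95.2% identical over 63.8% of that of *Isg15*, so the count holds only reads that could be placed in 1 of them. *Uba7*, the activating enzyme, had a log2 fold change of -0.19 with overlapping groups. *Herc6*, the ligase, was at 13.96, 13.8 and 12.3 CPM in WT and 10.8, 11.96 and 10.1 in C75S, each C75S library lower (edgeR adjusted p = 0.233). *Usp18*, the protease that removes ISG15 and also damps the interferon receptor, was at 45.3, 50.9 and 44.1 CPM in WT and 45.9, 38.9 and 44.2 in C75S, which overlap (log2 fold change -0.12).

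*Trim25*, a ubiquitin ligase that activates the RNA sensor RIG-I, was at 136, 138 and 143 CPM in WT and 129, 125 and 123 in C75S. The groups did not overlap, and the log2 fold change was -0.15 (SE 0.050, edgeR adjusted p = 0.132). *Parp14*, an ADP-ribosyltransferase, was at 94.0, 94.8 and 97.4 CPM in WT and 88.8, 80.6 and 82.1 in C75S, also separated, and just missed the threshold (log2 fold change -0.19, adjusted p = 0.058). It passed the threshold in 2 of 16 alternative fits, 1 of them that without C75S replicate 1 (adjusted p = 0.0364). In the others it was not called, with adjusted p up to 0.258. The neighbouring genes *Parp9* and *Dtx3l*, whose proteins form a complex and whose exons overlap on opposite strands of chromosome 16, had log2 fold changes of -0.066 and -0.023 with overlapping groups. The difference between *Parp14* and this pair was not tested.

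Of the other effectors, *Xaf1*, a pro-apoptotic partner of XIAP, was at 9.54, 11.6 and 9.65 CPM in WT and 8.21, 7.45 and 8.56 in C75S, without overlap (log2 fold change -0.35, edgeR adjusted p = 0.184). *Rsad2*, or viperin, and the nucleotide kinase gene *Cmpk2* stand next to each other on chromosome 12, with log2 fold changes of -0.30 and -0.23. Neither was called, and for *Rsad2* the groups overlapped through C75S replicate 1 at 12.1 CPM. *Ifi35* and *Samd9l* differed less, by -0.084 and -0.060, within overlapping groups. The MX GTPases trap viral ribonucleoproteins, and *Mx2* was at 3.51, 4.29 and 3.74 CPM in WT and 4.13, 2.89 and 2.19 in C75S, overlapping ranges (edgeR adjusted p = 0.575). *Mx1* was left out by the filter, with 10, 9 and 9 counts in the WT libraries and 5, 5 and 3 in C75S. The transcripts of *Mx1* and *Mx2* are 94.8% identical over part of their length.

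None of the 10 tested sensors was called, against 3.11% of all tested genes called in either direction. All 10 had negative log2 fold changes (background 50.9%), and 9 did with library-size scaling, *Ifih1* excepted. Their median was -0.17, and in 5 of them every C75S library lay below every WT library (background 8.96%). Among the RIG-I-like receptors, helicases that detect viral RNA in the cytosol, *Ddx58* (RIG-I) was at 66.1, 64.4 and 68.0 CPM in WT and 64.0, 61.0 and 56.8 in C75S. The groups just separated, by -0.13 on the log2 scale (edgeR adjusted p = 0.339). *Ifih1* (MDA5) had a log2 fold change of -0.011 (SE 0.066). *Dhx58* (LGP2), which modulates the other two, was at 17.4, 17.4 and 16.9 CPM in WT and 14.8, 12.3 and 14.2 in C75S, a clear gap (log2 fold change -0.33, adjusted p = 0.0872). *Zbp1*, a sensor of left-handed nucleic acid that can start necroptosis, was at 5.03, 5.02 and 4.997 CPM in WT and 4.13, 2.99 and 3.10 in C75S, the WT libraries being almost equal (log2 fold change -0.56, adjusted p = 0.124). *Eif2ak2*, the kinase PKR that halts translation, was at 56.5, 61.4 and 61.0 CPM in WT and 59.1, 54.7 and 56.1 in C75S, which overlap.

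Active OAS enzymes make the oligoadenylate that switches on RNase L, and the genes of the OAS family lie on chromosome 5. They were the lowest family of sensors per kilobase, apart from *Oasl1*, which was at 14.8, 15.98 and 15.9 CPM in WT and 16.02, 14.8 and 11.9 in C75S. Those groups overlapped. *Oasl2* was at 2.94, 3.66 and 3.30 CPM in WT and 2.30, 2.18 and 1.82 in C75S, and *Oas1b* at 2.04, 3.80 and 2.33 and 1.84, 1.90 and 1.71 CPM. Both separated by genotype, with log2 fold changes of -0.65 and -0.58, but at a few CPM the standard errors were 0.230 and 0.272, and the adjusted p-values were 0.15 and 0.344. *Oas1a* and *Oas3* overlapped between genotypes, at -0.037 and -0.21. *Oas1g* and *Oas2* were left out by the filter, at no more than 0.522 and 0.194 CPM in any library, and the transcripts of *Oas1a* and *Oas1g* are 97.5% identical. With no filter beyond 1 count all 47 members were tested, and *Oas1g*, *Oas2*, *Ifit3b* and *Mx1* were not among the 8 called there.

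None of the 4 transcription factors was called (background 3.11% in either direction). *Irf9*, the DNA-binding part of the STAT complex, was at 44.9, 46.1 and 44.9 CPM in WT and 40.0, 40.4 and 35.4 in C75S. The groups did not overlap (log2 fold change -0.23, edgeR adjusted p = 0.0668). *Irf7*, the factor that amplifies interferon production, was at 65.6, 78.6 and 78.1 CPM in WT and 71.1, 53.0 and 59.7 in C75S. C75S replicate 1 reached into the WT range, and leaving it out moved the log2 fold change from -0.28 (edgeR adjusted p = 0.277) to -0.40 (adjusted p = 0.00431). Leaving out any other single library gave no call, with edgeR adjusted p from 0.0878 to 0.523. Without C75S replicate 2 the log2 fold change was -0.18. *Stat2* was at 125, 113 and 126 CPM in WT and 121, 114 and 115 in C75S, overlapping groups with a log2 fold change of -0.051. *Irf1*, which answers mainly to interferon-gamma, had the highest value of the list at 0.10 (SE 0.095), with C75S at 31.7, 28.3 and 24.7 CPM and WT at 29.7, 24.1 and 25.2 CPM.

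**Figure D5:**
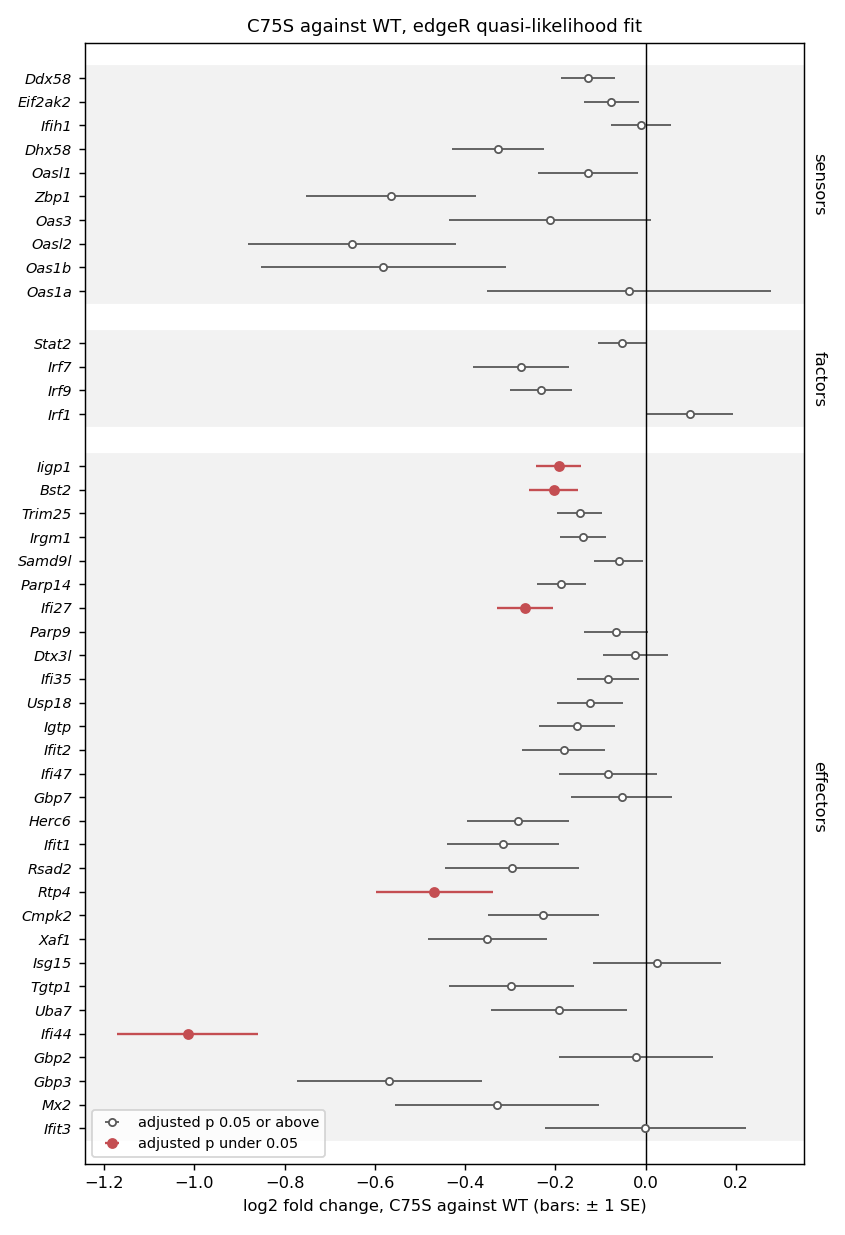
Log2 fold change of C75S against WT (x axis, bars ± 1 SE) for the 43 tested members in the order of the plot of levels. Filled red points are the 5 members with an adjusted p under 0.05, open grey points the other 38. *Irf1* and *Isg15* lie right of 0, and the widest bars belong to members at a few CPM.

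The median change was largest among the members at the lowest levels, where the error was largest too. The 12 tested members at 50 CPM or more had a median log2 fold change of -0.14, the 16 between 10 and 50 CPM one of -0.14, and the 15 under 10 CPM one of -0.30. All genes tested had medians of 0.003, -0.003 and -0.018 in those ranges. The median standard error rose from 0.0543 to 0.0983 and 0.188. Of the members in those ranges 3, 1 and 1 were called.

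Other genes of the interferon pathway lay on both sides of 0. Of 57 other interferon pathway genes, 43 were tested, and 19 had negative and 24 positive log2 fold changes, with a median of 0.0082. At an adjusted p under 0.05, 2 fell (background 1.37%) and 0 rose (background 1.74%). At an unadjusted p under 0.05 there were 4 lower and 3 higher, 9.30% lower being near the background of 6.51%, with 6.91% for higher. None of the 6 receptor genes, 4 JAK-STAT genes, 4 tested inhibitors, 8 tested genes of sensing and signalling or 2 other IRF factors was called. Among 10 interferon ligand genes, 9 had no count in any library, including *Ifnb1*, *Ifng* and the 4 *Ifna* genes examined, and *Ifnk* had 0.107 to 0.427 CPM. A count of 0 allows up to 0.172 CPM in the shallowest library. The receptor genes were expressed, *Ifnar1* at 57.0, 57.5 and 60.8 CPM in WT and 56.5, 57.9 and 54.5 in C75S, and *Ifnar2* at 27.1, 33.0 and 28.4 and 29.2, 29.1 and 27.4 CPM. Both overlapped between genotypes, with log2 fold changes of -0.053 and -0.046. The receptor kinases *Jak1* and *Tyk2* had log2 fold changes of 0.00 (SE 0.048) and 0.0082 (SE 0.061). *Irf3*, the factor that sensors switch on to induce interferon, was at 90.4, 84.2 and 82.2 CPM in WT and 83.7, 86.1 and 91.2 in C75S, which overlap.

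The 2 pathway genes that fell were themselves interferon-induced. *Tap1*, a subunit of the peptide transporter for MHC class I, was at 25.7, 22.6 and 18.9 CPM in WT and 15.96, 16.9 and 16.6 in C75S (log2 fold change -0.44, edgeR adjusted p = 0.0158). Its WT libraries were spread widely. The adjusted p was 0.0646 when C75S replicate 1 was left out, and 0.101 or 0.0708 when WT replicate 1 or 2 was. *Lgals3bp*, a secreted glycoprotein that binds galectins, was at 190.3, 193 and 195 CPM in WT and 172, 172 and 163 in C75S, without overlap (log2 fold change -0.19, edgeR adjusted p = 0.0264). For *Lgals3bp* it was 0.056 or 0.15 when C75S replicate 2 or 3 was left out, and 0.12 or 0.088 when WT replicate 2 or 3 was. Among the 19 tested interferon-induced genes outside the 47, 12 had negative values, with a median of -0.040.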

How the data were processed

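The deposited files are raw counts per Ensembl gene for 6 libraries, in the layout of STAR's gene count table. Trim Galore 0.6.6, STAR 2.7.9a, edgeR 3.36.0, mm10 and GRCm38 are named, without roles, per the submitters' processing notes. The annotation release is not given in the sources used here. The reverse-strand column was used, its total being 33.3 times that of the forward-strand column. Multimapping reads (17.98% to 18.5% of reads) and the other summary rows were left out. Symbols, positions and exon lengths are those of GENCODE M21 (GRCm38), a length counting every base in any annotated exon of the gene.

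Genes were filtered with edgeR's filterByExpr (minimum count 10, minimum total 15), leaving 12741 genes and 43 of the 47 members. The genotypes were compared in edgeR 4.0.16 under R 4.3.3, with a robust quasi-likelihood fit after TMM scaling, with no block, and p-values were Benjamini-Hochberg adjusted over all tested genes. A standard error is the size of the log2 fold change divided by the square root of F. Alternatives used DESeq2 1.42.0 and limma 3.58.1 (voom), other scalings and filters, unstranded counts, a replicate block, thinning and each library left out. On simulated data with 200 of 12741 genes changed by 1.5-fold, the C75S against WT test recovered 73.5%, and 5.77% of its calls were false. Most members differed by less than 1.5-fold, and the recovery of such smaller changes was not simulated. Transcript copies were sought with BLAST 2.17.0 (at least 85% identity over 30% of the transcript).

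Values per library are given for members called, members at an unadjusted p under 0.05, and the highest member of each family per kilobase of exon. Other members are named with fold changes for completeness, outside that rule, as is the choice of some promoters. Of the pathway list, called genes and *Ifnar1*, *Ifnar2*, *Jak1*, *Tyk2* and *Irf3* were named by rule, and the others after their values were seen. A further gene of that list is not reported here by name. The members, the lists and the tests were chosen with earlier results of these data known.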

Additional observations from a re-analysis of the deposited data

How the results depend on the processing

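The 396 genes called between the genotypes became 201 to 355 when 1 library was left out, and the members called lower, 5 with all libraries, became 2 to 6. *Ifi44* was called in each of the 16 alternative fits. With library-size scaling, limma-voom or thinning 3 members were called lower, and with no filter beyond 1 count 8 were, *Irf7*, *Irf9* and *Parp14* being added. The cause was not tested. The members called higher were 0 in each of the 16 alternatives. The median log2 fold change of the tested members stayed between -0.22 and -0.14 without single libraries. The 2 pathway genes called became 0 to 1. Same-numbered libraries of the genotypes did not deviate together (correlations of 0.017, -0.040 and 0.025). With 3 libraries a group, such correlations cannot decide whether libraries of the same number were matched. The fit with a replicate block called 480 genes and the same 5 members lower, with a median of -0.19.

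Genes near 0 changed sign in some fits. *Ifih1* was at 0.0020 with library-size scaling and 0.0034 thinned, *Ifit3* at 0.0085 with library-size scaling, *Oas1a* at 0.050 and *Gbp2* at 0.051 thinned. *Jak1* was at -0.0026 with no filter, -0.00018 unstranded and -0.0013 thinned. Without single libraries the log2 fold change ran from -0.056 to 0.032 for *Ifih1*, -0.088 to 0.057 for *Oas1a*, -0.38 to 0.016 for *Oas3*, -0.13 to 0.14 for *Ifit3*, -0.087 to 0.093 for *Isg15*, -0.075 to 0.047 for *Dtx3l*, -0.11 to 0.083 for *Gbp2*, -0.14 to 0.0046 for *Gbp7*, -0.10 to 0.042 for *Ifnar2*, -0.027 to 0.021 for *Jak1*, -0.014 to 0.042 for *Tyk2* and -0.012 to 0.065 for *Irf3*. With all 6 libraries, the 4 members under 1 CPM were tested only with no filter beyond 1 count, and none of them was called there. When C75S replicate 1 or 3 or WT replicate 2 or 3 was left out, 44 members were tested. None of the 4 was called in those fits either.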

Other observations

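Per kilobase of exon, *Stat2* was at 20.4 CPM per kb in WT and *Irf9*, whose protein binds DNA together with it, at 8.41. The exon lengths used were 5926 and 5386 bases. Those of *Irf9* fill most of its span from 55603571 to 55610030, so this order is rough. The C75S libraries were at 19.7 and 7.16 CPM per kb, divided by the same lengths. Of the DNA-sensing pair, *Mb21d1* (cGAS) did not exceed 0.517 CPM and *Tmem173* (STING) did not exceed 0.107 CPM in any library, while *Mavs*, the adaptor of the RNA sensors, was at 82.6 to 92.1 CPM.

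*Irf5*, a factor that drives inflammatory cytokine genes, was at 9.99, 9.58 and 9.63 CPM in C75S and 7.03, 7.16 and 7.47 CPM in WT, every C75S library being higher (log2 fold change 0.43, edgeR adjusted p = 0.0707). It was not called, and its log2 fold change stayed between 0.41 and 0.46 over 16 alternative fits. *Oas1b* and *Mx2* are annotated in GENCODE M21 as polymorphic pseudogenes, which means that the reference strain carries a disabled copy, and both had reads in every library here.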
